A study of Oryza sativa Japonica Group with 8 samples.

Results

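Leaf RNA from OsGRP3 knock-down plants (OsGRP3 KD) was compared with leaf RNA from non-transgenic plants of the same cultivar (NT Dongjin). The comparison was chosen by the sample labels and took 4 of the 8 libraries of the series, 2 per group. The count table holds 37869 annotated genes, of which 24383 passed the filter on low counts and were tested. The question was which cellular functions differ in leaves when OsGRP3, a drought-related RNA-binding protein, is targeted by RNA interference. The other 4 libraries came from plants that overexpress OsGRP3 (OsGRP3 OE) and from NT plants of their cultivar, Nakdong, and they are used here only where their values stand beside a result.

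All plants were Oryza sativa Japonica. They were kept in soil at 28 °C with 16 h of light and 8 h of dark per day, received no stress treatment, and were 4 weeks old when leaves were taken. The OsGRP3 KD plants are of cultivar Dongjin and carry an inverted repeat of an OsGRP3 fragment from the 3′ untranslated region, expressed from the constitutive OsGOS2 promoter. Their reference, the NT plants, carry no transgene. The labels do not name the knock-down line or the hour of harvest. The study calls the libraries of a group biological replicates, and the labels do not say how many plants each came from. Whole leaves were used, and fewer cells of a type cannot be told apart from less RNA per cell.

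Glycine-rich RNA-binding proteins carry an RNA recognition motif at one end and a glycine-rich stretch at the other. They bind messenger RNAs in the nucleus and the cytoplasm and act on splicing, export, stability and translation, and in Arabidopsis members of the family belong to a loop under control of the circadian clock. Leaves of young rice plants combine photosynthesis in expanded blades with cell division and wall growth near the leaf base, so their RNA carries the genes of both.

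The primers that define the knock-down fragment show which stretch of OsGRP3 the inverted repeat carries, and they are given here because the reads of that stretch count towards the gene. They come from the study's primer list, are written 5′ to 3′, and capitals mark the stop codon of OsGRP3.
OsGRP3 knock-down fragment, forward primer: ggaactggaggaacTGAttg
OsGRP3 knock-down fragment, reverse primer: ggtaacatcacggacgaaga
OsGRP3 qRT-PCR, forward primer: tcgtggccagttatccttag
The first 17 bases of the forward primer are the end of the coding sequence, and the reverse primer of the qRT-PCR assay is identical to that of the knock-down fragment.

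OsGRP3 itself (Os03g0670700, IRGSP-1.0 chromosome 3, 26460057 to 26461156, plus strand) was slightly lower in the knock-down libraries. It had 345 and 324.5 CPM (counts per 1000000 counts of the library, scaled by TMM factors) in OsGRP3 KD, against 399.8 and 403 CPM in NT Dongjin. The groups did not overlap, but the difference of -0.26 ± 0.12 on the log2 scale (SE from the fit over all libraries, n = 2 each) did not pass the test (adjusted p = 0.0761, edgeR's quasi-likelihood test). The study reports a far larger fall of OsGRP3 in the knock-down, from its RNA sequencing and from qRT-PCR on leaves of younger seedlings. The deposited counts did not show a fall of that size. Within the gene, the first exon shared by all 4 transcripts (209 bases) had a coverage, scaled to library size, of 70.5 and 63.6 in OsGRP3 KD and 97.4 and 94.3 in NT Dongjin. The last stretch shared by all transcripts (279 bases from 26460849 to 26461127) had 23.0 and 21.4 in OsGRP3 KD and 17.5 and 19.0 in NT Dongjin. On this scale the 5′ part of the gene was thus lower and its 3′ part higher in the knock-down libraries. Their reads were weighted towards the 3′ end over genes in general, as described below. The pattern within OsGRP3 cannot be told apart from that weighting. The transcript of the inverted repeat would be counted with the 3′ part, and its share in these values was not tested. In the fit with an offset for transcript length, described below, the difference was -1.03 (adjusted p = 0.000194, edgeR). With counts of the 3′-most exon, also described below, it was -0.24 and did not pass the test (adjusted p = 0.207, edgeR). The 2 alternatives thus differed for OsGRP3. NT Nakdong plants had 1249 and 1171 CPM of OsGRP3, so the level in both Dongjin groups was far below that of the other cultivar.

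The other genes annotated as glycine-rich RNA-binding proteins did not share one direction. Os12g0632000, similar to glycine-rich RNA-binding protein 1, had 1014 and 1073 CPM in OsGRP3 KD, against 181 and 184 CPM in NT Dongjin, a rise of 2.51 ± 0.09 (adjusted p = 1.8e-07, edgeR). Os05g0223200, similar to GRP2A, was at a low level and also rose, with 1.22 and 1.08 CPM in OsGRP3 KD and 0.188 and 0.231 CPM in NT Dongjin (2.42 ± 0.48). Os07g0187300, similar to glycine-rich RNA-binding protein 7, had 56.0 and 53.8 CPM in OsGRP3 KD and 63.9 and 66.3 CPM in NT Dongjin, a difference of -0.25 that is below the 2-fold limit for a call.

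The shape of the read coverage along a transcript also separated the groups, without exception. In 5735 genes with at least 3 exons, coverage of the first exon was divided by coverage of the last exon. On the log2 scale the median of this ratio was -2.28 and -2.62 for the OsGRP3 KD libraries, against -0.76 and -0.69 for the NT Dongjin libraries. The OsGRP3 OE and NT Nakdong libraries lay between -2.57 and -2.24. The 3′-most exon held 59.6% and 61.5% of the counts in OsGRP3 KD and 41.4% and 41.5% in NT Dongjin. The knock-down libraries were weighted towards the 3′ end like the other 4 libraries, while NT Dongjin reads covered transcripts more evenly. Coverage shape and genotype therefore cannot be told apart in this comparison, and every difference between OsGRP3 KD and NT Dongjin reported here carries that limit.

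**Figure D1:**
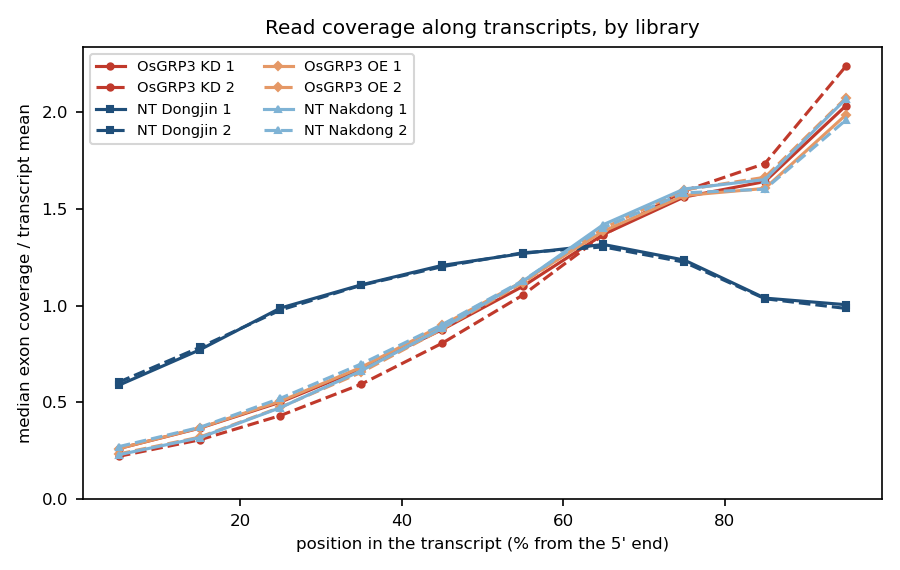
Median exon coverage relative to the mean of the transcript (vertical axis, from 0) by position along the transcript from the 5′ end (horizontal axis, percent), 1 line per library. In the lines of OsGRP3 KD, OsGRP3 OE and NT Nakdong the first exons are low and the last exons high, while the 2 NT Dongjin lines run flatter.

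For that reason each result was computed in 2 further ways. One used only counts of the 3′-most exon, where both kinds of library have reads, and the other removed the trend of counts with transcript length in each library (length offset). Values for NT Nakdong, which has the coverage shape of the knock-down libraries but another cultivar and no transgene, are given beside the main genes. Of 224 named genes that were called, 164 of 222 with a value kept the call with the 3′-most exon and 159 of 224 with the length offset. The fit of OsGRP3 KD against NT Nakdong was added after the data were seen, and in it genotype and cultivar cannot be told apart.

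A call required a change of at least 2-fold and a p under 0.05 after Benjamini-Hochberg adjustment over all genes tested. In OsGRP3 KD 5806 genes were called up (23.8% of those tested) and 3363 were called down (13.8%), 37.6% in all. Counts of the 3′-most exon gave 4562 genes up and 3014 down of 23179 tested (19.7% and 13.0%, 32.7% in all). The length offset gave 4725 up and 2730 down (19.4% and 11.2%, 30.6% in all). Both OsGRP3 KD libraries were above both NT Dongjin libraries for 45.4% of the genes and below them for 37.3%. Against NT Nakdong, the same OsGRP3 KD libraries had 332 genes called up (1.36%) and 741 called down (3.04%), 4.4% in all. In the other comparison of the series, OsGRP3 OE against NT Nakdong, 151 genes were called up (0.619%) and 208 down (0.853%), 1.47% in all. The correlation of log2 CPM was 0.853 to 0.86 between OsGRP3 KD and NT Dongjin libraries, and 0.958 to 0.967 between OsGRP3 KD and NT Nakdong libraries. The knock-down libraries were thus closer to the NT plants of the other cultivar than to those of their own.

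Calls followed transcript length. Among the shortest length quartile of genes (transcripts of 109 to 1022 bases), 38.6% were called up and 5.87% down, with a median log2 fold change of 0.87. Among the longest length quartile (2186 to 8231 bases), 11.0% were called up and 30.2% down, with a median of -0.61. With the length offset these shares came to 20.7% up and 13.1% down in the shortest length quartile, and 16.9% up and 9.63% down in the longest. With counts of the 3′-most exon, 27.5% were called up and 8.39% down in the shortest length quartile. In the longest, 11.6% were called up and 20.2% down. Part of the trend with length thus remained in the 3′-most exon counts, and a call kept with them is not free of it. Lost calls of the genes named below are therefore given with them, for the 3′-most exon and the length offset.

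The cultivar label was checked by genes that are present in one cultivar and not in the other. There were 20 genes with at most 2 counts per library in both OsGRP3 KD and NT Dongjin and at least 5 CPM in OsGRP3 OE and NT Nakdong, and 4 genes with the reverse pattern. No gene was high in OsGRP3 KD and NT Nakdong and near 0 in OsGRP3 OE and NT Dongjin. That count cannot test the cultivar of OsGRP3 KD, since OsGRP3 OE is itself of cultivar Nakdong. A further 118 genes were near 0 in NT Dongjin alone and at least 5 CPM in the other 3 groups. By the same limits 0 genes were near 0 in OsGRP3 KD alone. Genes near 0 in some groups thus did not all place OsGRP3 KD with NT Dongjin, and the reason was not tested. As for tissue, the root markers RCc3, Lsi2 and NRT2.1 and the shoot meristem gene OSH1 had 0 counts in all 4 libraries, and OSH15 had 0.111 CPM in 1 OsGRP3 KD library. Lsi1, the silicon influx transporter known from roots, had 12.8 and 12.5 CPM in OsGRP3 KD and 13.7 and 12.5 CPM in NT Dongjin.

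Some genes of the circadian clock differed widely in level. Rice keeps time with LHY, a MYB factor that peaks around dawn, a set of pseudo-response regulators (PRR) that follow through the day, and evening genes such as PRR1 (TOC1), GI, ELF3 and LUX, which repress or relieve each other. Of the 13 core clock genes, 4 rose (30.8%) and 2 fell (15.4%), near the 23.8% and 13.8% over all genes tested. Their median log2 fold change was 0.20, against 0.14 over all genes tested. Counts of the 3′-most exon called 6 up and 4 down, and the length offset 6 up and 1 down.

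OsLHY (Os08g0157600) was far lower in the knock-down libraries. It had 141 and 139.5 CPM in OsGRP3 KD, against 4099 and 4105 CPM in NT Dongjin, which is -4.87 ± 0.10 on the log2 scale (adjusted p = 4.33e-08, edgeR). The replicates of each group lay close together, and NT Nakdong stood at 162 and 157 CPM, near the knock-down. OsPRR1 (Os02g0618200), the evening repressor of LHY in the Arabidopsis model, had 27.8 and 31.1 CPM in OsGRP3 KD and 2.03 and 2.49 CPM in NT Dongjin (3.69 ± 0.18, adjusted p = 6.12e-07, edgeR). OsFKF1 (Os11g0547000), a blue-light receptor that targets proteins for degradation in the afternoon, had 13.8 and 14.0 CPM in OsGRP3 KD and 0.527 and 0.55 CPM in NT Dongjin (4.68 ± 0.22, adjusted p = 5.68e-07, edgeR). With the 3′-most exon and the length offset the changes were -4.12 and -4.14 for OsLHY, 3.49 and 3.99 for OsPRR1, and 4.11 and 5.62 for OsFKF1. The dawn gene was thus low and these later genes high in the knock-down libraries, with no overlap of the groups. In NT Nakdong OsPRR1 had 22.5 and 23.0 CPM and OsFKF1 11.9 and 13.5 CPM.

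The remaining clock genes moved less. OsLUX (Os01g0971800), a DNA-binding member of the evening complex, had 1.06 and 1.19 CPM in OsGRP3 KD and 0.0753 and 0.289 CPM in NT Dongjin (2.53 ± 0.61). OsELF3-2 (Os01g0566100), of the same complex, had 3.46 and 1.89 CPM in OsGRP3 KD and 1.43 and 0.752 CPM in NT Dongjin (1.32 ± 0.50, adjusted p = 0.044, edgeR), and its call was lost with the 3′-most exon (0.74) and with the length offset (1.28, adjusted p = 0.0527, edgeR). OsZTL2 (Os02g0150800), a relative of FKF1, fell to 61.7 and 59.2 CPM in OsGRP3 KD, against 124 and 125 CPM in NT Dongjin (-1.04 ± 0.08), and lost its call under the length offset (-0.56). Some genes passed the p threshold but not the 2-fold limit. OsZTL1 (Os06g0694000) differed by -0.94, OsPRR59 (Os11g0157600) by 0.95 and OsELF3-1 (Os06g0142600) by -0.72. OsPRR95 (Os09g0532400) differed by 0.66 and OsGI (Os01g0182600), the large evening protein, by 0.20, with 900 and 932 CPM in OsGRP3 KD and 804 and 791 CPM in NT Dongjin. OsGI reached 1.08 with the 3′-most exon and 1.28 with the length offset. OsPRR37 (Os07g0695100) and OsPRR73 (Os03g0284100), which also delay flowering in long days, were at 0.11 and -0.10 and did not pass the test (adjusted p = 0.272 and 0.364, edgeR), and the sign for OsPRR73 turned with the 3′-most exon (0.07) and the length offset (0.87).

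**Figure D2:**
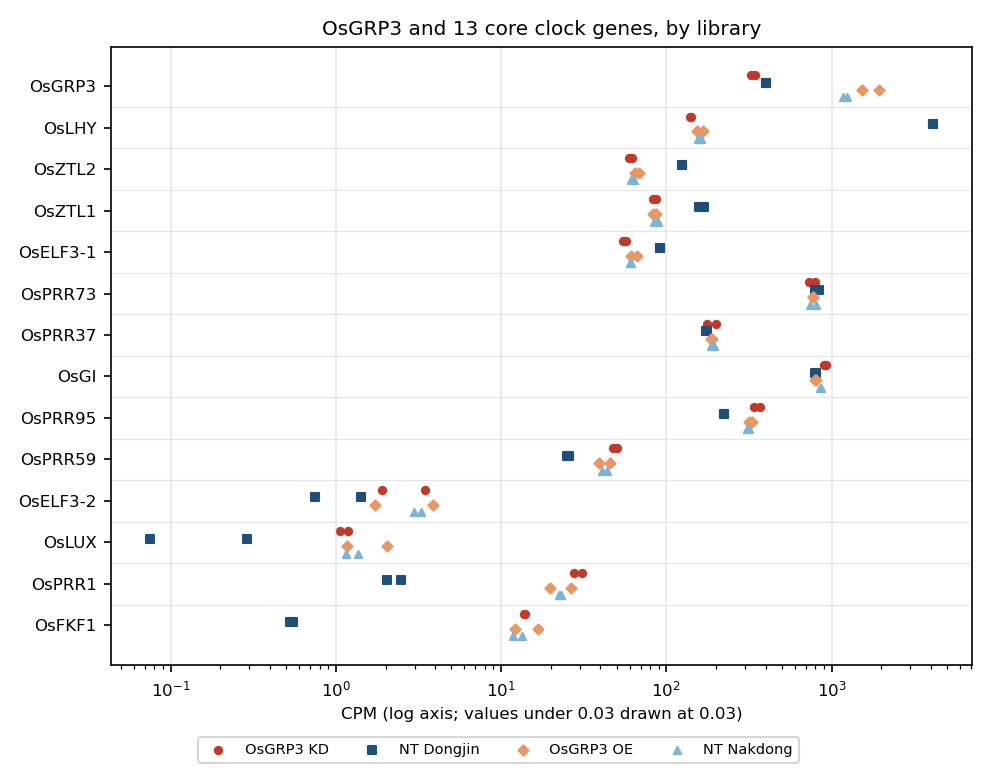
CPM of OsGRP3 and the core clock genes on a log axis, 1 row per gene and 1 point per library, with OsGRP3 KD above NT Dongjin and the other groups. OsLHY lies at 141 and 139.5 CPM in OsGRP3 KD and at 4099 and 4105 CPM in NT Dongjin, while OsPRR1 and OsFKF1 are higher in OsGRP3 KD than in NT Dongjin.

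Heading date genes, the outputs of the clock that set flowering, were at low levels in these leaves. Hd1, the day-length reader, had 1.63 and 1.19 CPM in OsGRP3 KD and 1.99 and 1.94 CPM in NT Dongjin, a difference of -0.47 that did not pass the test (adjusted p = 0.338, edgeR). The florigen Hd3a had 0 CPM in both OsGRP3 KD libraries and 0.15 and 0.231 CPM in NT Dongjin. Ehd1, an activator of florigen, had 0 counts in all 4 libraries.

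More genes of photosynthesis rose than fell in OsGRP3 KD, and the abundant Rubisco activase fell. In chloroplasts, antenna proteins pass light energy to photosystem II and photosystem I, and the Calvin cycle with its enzyme Rubisco fixes carbon in the stroma. Of 42 photosystem subunits, 18 rose (42.9%), with a median of 0.90, and 0 were called down by edgeR, also at an unadjusted p, or by DESeq2. Of 17 light-harvesting proteins, 5 rose and 0 were called down (also 0 at an unadjusted p, and 1 by DESeq2), with a median of 0.57. The share called up, 29.4%, was near the 23.8% over all genes, and 3 light-harvesting genes were called up and 2 down with the 3′-most exon, and 3 up and 1 down with the length offset. Transcripts of both lists are short, and the medians came to 0.61 and 0.02 with the 3′-most exon and to 0.29 and 0.06 with the length offset. With the 3′-most exon 15 photosystem subunits were called up, and under the offset 10 were called up and 2 down. The summed level of the light-harvesting list was 75076 and 87250 CPM in OsGRP3 KD and 50519 and 50883 CPM in NT Dongjin.

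Among the antenna genes, Os01g0600900, a major chlorophyll a/b-binding protein of photosystem II, had 13854 and 15711 CPM in OsGRP3 KD and 4194 and 4427 CPM in NT Dongjin (1.78 ± 0.16, adjusted p = 1.54e-05, edgeR). Os07g0558400, which encodes the linker antenna CP29, had 7360 and 8557 CPM in OsGRP3 KD and 3516 and 3602 CPM in NT Dongjin (1.16 ± 0.14). Its call was lost in both alternatives (0.72 and 0.75). CP24 (Os04g0457000) rose by 1.47 ± 0.15 and likewise lost its call (0.90 and 0.99). The groups did not overlap for any of these antenna genes.

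In the photosystems, Os07g0147500, the photosystem II 10 kDa polypeptide, stood out. It had 3873 and 3303 CPM in OsGRP3 KD, against 94.7 and 93.0 CPM in NT Dongjin, a rise of 5.26 ± 0.15 (adjusted p = 8.13e-08, edgeR), and it stayed called with the 3′-most exon (4.94) and the length offset (4.31). PsbS (Os01g0869800), which dissipates excess light energy, had 1147 and 1353 CPM in OsGRP3 KD and 532 and 540 CPM in NT Dongjin (1.22 ± 0.15), and its call was lost in both alternatives. The same held for the reaction centre protein W (Os01g0773700, 1.13 ± 0.16). In NT Nakdong Os07g0147500 had 3139 and 3056 CPM.

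Of 29 genes of the Calvin cycle and Rubisco, 12 rose (41.4%) and 5 fell (17.2%), against 23.8% and 13.8% over all genes. Their median was 0.32, and the share that fell was near that over all genes. A Rubisco small subunit gene, Os12g0291400, had 4721 and 5605 CPM in OsGRP3 KD, against 245 and 222 CPM in NT Dongjin (4.47 ± 0.15, adjusted p = 1.35e-07, edgeR). The small subunit genes Os12g0274700 and Os12g0291100 rose by 2.25 ± 0.17 and 1.51 ± 0.15, and the call of Os12g0291100 was lost with the length offset (0.78). These genes are close copies, so the split of reads among them is uncertain. Rubisco activase (Os11g0707000), which frees Rubisco from inhibitory sugar phosphates, went the other way, with 7463 and 8041 CPM in OsGRP3 KD and 35804 and 35527 CPM in NT Dongjin (-2.20 ± 0.14, adjusted p = 2.5e-06, edgeR). In NT Nakdong it had 9638 and 9110 CPM. The enzyme subunits and the activase that services the enzyme thus differed in opposite directions.

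Chlorophyll synthesis genes gave 9 called up (42.9%) and 1 called down (4.76%) of 21, against 23.8% and 13.8% over all genes. Their median was 0.55, and 8 were called up with either alternative. Protochlorophyllide reductase (Os04g0678700), which makes the chlorophyll precursor chlorophyllide in the light, had 1288 and 1157 CPM in OsGRP3 KD, against 8.69 and 8.71 CPM in NT Dongjin (7.13 ± 0.25, adjusted p = 1.55e-07, edgeR). NT Nakdong had 1223 and 1354 CPM of it. A subunit of magnesium chelatase (Os03g0563300), the first committed step, had 241 and 286 CPM in OsGRP3 KD and 121 and 111 CPM in NT Dongjin (1.18 ± 0.10), and lost its call in both alternatives. The gene that fell, Os10g0567400, is annotated as a Rieske-type protein and had 461 and 520 CPM in OsGRP3 KD and 1151 and 1144 CPM in NT Dongjin (-1.23 ± 0.09), and it too lost its call in both alternatives.

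Ribosomal proteins were mostly higher when whole genes were counted. Of 57 plastid ribosomal proteins, which build the ribosomes that translate chloroplast genes, 30 rose (52.6%) and 1 fell (1.75%), with a median of 1.16. The shares over all genes were 23.8% and 13.8%. The 3′-most exon gave 25 up and the length offset 22 up, with medians of 0.84 and 0.49. The subunit L31 (Os01g0633000) had 350 and 390 CPM in OsGRP3 KD and 143 and 146 CPM in NT Dongjin (1.36 ± 0.11), and lost its call in both alternatives (0.84 and 0.49). Of 168 cytosolic ribosomal proteins, 96 rose (57.1%) and 1 fell (0.595%), with a median of 1.12. Both OsGRP3 KD libraries were above both NT Dongjin libraries for 161 of them. These transcripts are short (median 789 bases), and the calls were 37 up with the 3′-most exon and 9 up with the length offset, where the median was 0.29. For example, S9 of the small subunit (Os03g0154700) had 198 and 207 CPM in OsGRP3 KD and 83.8 and 75.6 CPM in NT Dongjin (1.34 ± 0.08), and lost its call with the offset (0.69). With the offset 22 of 57 plastid and 9 of 168 cytosolic ribosomal proteins were thus called up, against 19.4% of all genes tested. The share of cytosolic ribosomal proteins was then below that over all genes.

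**Figure D3:**
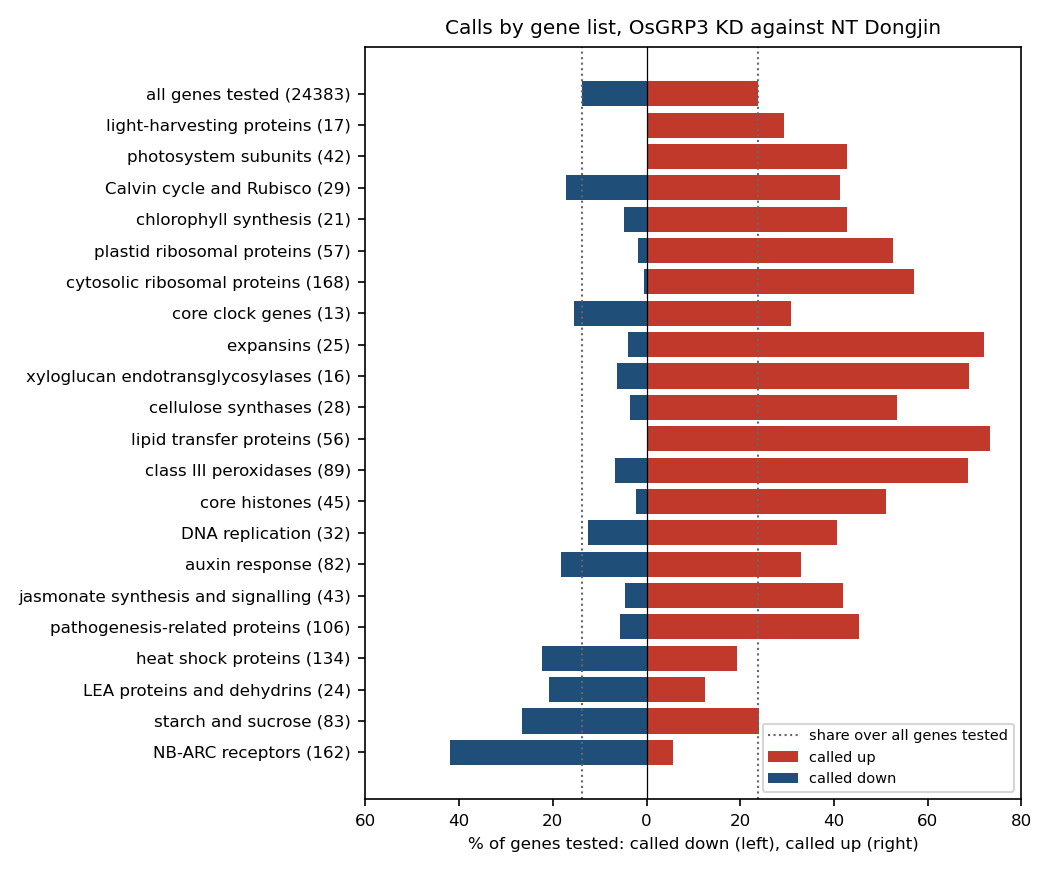
Share of the genes tested in each list that were called down (left of 0) or called up (right of 0) in OsGRP3 KD against NT Dongjin, in percent, with the number tested in brackets and dotted lines at the shares over all genes tested (23.8% up and 13.8% down). Expansins, xyloglucan endotransglycosylases, peroxidases and lipid transfer proteins lie far to the right, and NB-ARC receptors to the left.

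Genes of wall growth were mostly called up. Growing plant cells loosen their walls with expansins, cut and rejoin xyloglucan with endotransglycosylases, and lay down cellulose with synthase complexes. Of 25 expansins, 18 rose (72%) and 1 fell (4%), against 23.8% and 13.8% over all genes. The median fitted change was 5.47, or 2.64 when the 11 members at 0 counts in NT Dongjin were set to their bound against a floor of 3 counts per library. The list had 16 calls up with the 3′-most exon and 17 with the length offset. The beta-expansin Os10g0555900 had 188 and 121 CPM in OsGRP3 KD, against 0.414 and 0.868 CPM in NT Dongjin (7.85 ± 0.35, adjusted p = 4.27e-07, edgeR). The alpha-expansin OsEXPA4 (Os05g0477600) had 125 and 86.9 CPM in OsGRP3 KD and 3.35 and 2.37 CPM in NT Dongjin (5.23 ± 0.22). In both genes OsGRP3 KD replicate 2 was the lower of the knock-down libraries, still far above NT Dongjin. The one that fell, Os07g0496250, similar to expansin-like B1, was low throughout, with 0.544 and 0.594 CPM in OsGRP3 KD and 2.48 and 2.23 CPM in NT Dongjin, and lost its call with the 3′-most exon (-1.52, adjusted p = 0.151, edgeR).

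Of 16 xyloglucan endotransglycosylases, 11 rose (68.75%) and 1 fell (6.25%), against 23.8% and 13.8% over all genes. Their median was 3.73 (2.21 with 4 members at 0 in NT Dongjin set to their bound). Os08g0237000, annotated as family member 8, had 400 and 278 CPM in OsGRP3 KD and 19.3 and 22.3 CPM in NT Dongjin (4.02 ± 0.18). The gene that fell, Os09g0536000, is an exodeoxyribonuclease caught by the keyword and no wall enzyme, and its call was lost in both alternatives. Of 28 cellulose synthases and related genes, 15 rose (53.6%) and 1 fell (3.57%), with a median of 1.54, and 15 rose with the length offset as well. Os07g0424400 and Os07g0208500, both annotated as similar to cellulose synthases, had 257 and 239 CPM, and 160 and 130 CPM, in OsGRP3 KD, against 32.2 and 32.3 CPM, and 19.6 and 19.2 CPM, in NT Dongjin. Their changes were 2.95 ± 0.09 and 2.90 ± 0.11. Os09g0478100, a cellulose synthase family member, fell to 55.7 and 45.6 CPM in OsGRP3 KD, against 197 and 207 CPM in NT Dongjin (-1.99 ± 0.10).

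Among cell division genes, core histones and genes of DNA replication were called up more often than down. Of 45 core histones, which package newly copied DNA, 23 rose (51.1%) and 1 fell (2.22%), against 23.8% and 13.8% over all genes. Their median was 1.05. With the 3′-most exon 12 histones rose and 2 fell, and with the length offset 9 rose and 4 fell. Histone H3 (Os04g0450800) had 175 and 170 CPM in OsGRP3 KD and 86.6 and 80.8 CPM in NT Dongjin (1.05 ± 0.07), and lost its call with the 3′-most exon (0.73). Of 32 genes of DNA replication, 13 rose (40.6%) and 4 fell (12.5%), and the share that fell was near that over all genes. Their median was 1.68, or 0.67 with 7 members at 0 in NT Dongjin set to their bound. With the 3′-most exon 8 of 27 rose and 1 fell, and with the length offset 11 rose and 1 fell. Os08g0200100, related to ribonucleotide reductase, which supplies the building blocks of DNA, had 5.35 and 2.71 CPM in OsGRP3 KD and 0 in NT Dongjin, so that it was at least 24-fold higher. The catalytic subunit of DNA polymerase delta (Os11g0186400) fell to 11.6 and 11.1 CPM in OsGRP3 KD, against 26.1 and 28.4 CPM in NT Dongjin (-1.26 ± 0.11), and lost its call in both alternatives (-0.27 and -0.37).

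Microtubule genes rose more than they fell. Of 15 tubulins, 8 rose (53.3%) and 1 fell (6.67%), against 23.8% and 13.8% over all genes, and the same counts held with both alternatives. An alpha-tubulin, Os03g0726100, had 492 and 437 CPM in OsGRP3 KD, against 99.7 and 91.3 CPM in NT Dongjin (2.28 ± 0.12, adjusted p = 8.01e-07, edgeR). Os11g0549900, similar to alpha-6 tubulin, fell to 47.5 and 54.1 CPM in OsGRP3 KD, against 154 and 143 CPM in NT Dongjin (-1.55 ± 0.09). The keyword list of cyclins and kinesins held 296 genes, most of them F-box proteins, of which 51 rose (17.2%) and 40 fell (13.5%), with a median of -0.14, shares near or below those of all genes. The list was also trimmed of F-box and cyclin-related proteins, which was done after the values were seen. The 77 genes left had 27 called up (35.1%) and 11 called down (14.3%), with a median of 0.43. The kinesin Os08g0547500, a motor that moves along microtubules, had 125 and 104 CPM in OsGRP3 KD and 7.53 and 9.03 CPM in NT Dongjin (3.78 ± 0.13). Cyclin-B1-2 (Os02g0801300) fell to 17.5 and 15.6 CPM in OsGRP3 KD, against 79.4 and 77.1 CPM in NT Dongjin (-2.24 ± 0.10). Against NT Nakdong the medians of the growth lists in OsGRP3 KD were below 0, at -0.62 for expansins, -0.44 for xyloglucan endotransglycosylases and -0.57 for tubulins.

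Auxin genes moved in both directions. Auxin acts through Aux/IAA repressors, which it destroys, and the auxin response factors (ARF) they hold back. Of 82 auxin genes, 27 rose (32.9%) and 15 fell (18.3%), against 23.8% and 13.8% over all genes, with a median of 0.49. The Aux/IAA gene Os05g0230700, similar to IAA17, had 531 and 531 CPM in OsGRP3 KD and 146 and 143 CPM in NT Dongjin (1.88 ± 0.09). The factor Os11g0523800, similar to ARF23, fell to 121 and 127 CPM in OsGRP3 KD, against 482 and 488 CPM in NT Dongjin (-1.97 ± 0.08), and lost its call with the 3′-most exon (-0.93). Os01g0927600, similar to ARF2, had 135 and 132 CPM in OsGRP3 KD and 375 and 372 CPM in NT Dongjin (-1.49 ± 0.08), and lost its call in both alternatives. Calls down came to 8 with either alternative, and ARF transcripts are long.

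For gibberellin, which promotes elongation, 6 of 22 genes rose (27.3%) and 3 fell (13.6%), near the shares over all genes. Gibberellin 20-oxidase 1 (Os03g0856700), a late synthesis enzyme, had 19.98 and 13.6 CPM in OsGRP3 KD and 4.52 and 3.70 CPM in NT Dongjin (2.04 ± 0.23). Os08g0559300, similar to SPY, which restrains gibberellin signalling, had 50.8 and 48.2 CPM in OsGRP3 KD and 100 and 99.1 CPM in NT Dongjin (-1.01 ± 0.07), and lost its call in both alternatives. Of 27 cytokinin genes, 12 rose (44.4%) and 5 fell (18.5%). The A-type response regulator Os01g0952500, of a class that dampens the cytokinin signal, had 48.3 and 64.3 CPM in OsGRP3 KD and 11.6 and 11.3 CPM in NT Dongjin (2.30 ± 0.14). Cytokinin dehydrogenase 11 (Os08g0460600), which breaks cytokinin down, fell to 50.5 and 45.1 CPM in OsGRP3 KD, against 235 and 247 CPM in NT Dongjin (-2.33 ± 0.11).

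Jasmonate genes rose in number, while the most abundant one fell. Jasmonate is made in the chloroplast from fatty acids by lipoxygenases and the enzymes after them, and TIFY (JAZ) proteins repress its responses. Of 43 genes, 18 rose (41.9%) and 2 fell (4.65%), against 23.8% and 13.8% over all genes. Their median was 1.02 (1.04 with the 3′-most exon and 0.98 with the length offset). The chloroplast lipoxygenase Os02g0194700, similar to lipoxygenase 2.3, fell to 990 and 978 CPM in OsGRP3 KD, against 5519 and 5682 CPM in NT Dongjin (-2.51 ± 0.11, adjusted p = 4.34e-07, edgeR). The TIFY gene Os07g0615200 had 171 and 160 CPM in OsGRP3 KD and 68.1 and 75.9 CPM in NT Dongjin (1.20 ± 0.08), and lost its call with the length offset (0.88). The summed level of the list, the lipoxygenase included, was 2577 and 2459 CPM in OsGRP3 KD and 6698 and 6888 CPM in NT Dongjin.

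Of 21 abscisic acid genes, 6 rose (28.6%) and 2 fell (9.52%), with a median of 0.13, and the shares and the median were near those of all genes. SAPK2 (Os07g0622000), a kinase activated by osmotic stress and abscisic acid, had 64.5 and 65.4 CPM in OsGRP3 KD and 29.6 and 29.5 CPM in NT Dongjin (1.14 ± 0.08), and lost its call with the length offset (0.89). Abscisic acid 8′-hydroxylase 1 (Os02g0703600), which inactivates the hormone, fell to 1.47 and 2.45 CPM in OsGRP3 KD, against 7.49 and 7.17 CPM in NT Dongjin (-1.91 ± 0.27). Proteins of the dehydration response followed no common direction. Of 24 late embryogenesis abundant (LEA) proteins and dehydrins, 3 rose (12.5%) and 5 fell (20.8%). The dehydrin RAB21 (Os11g0454300) had 3.11 and 2.04 CPM in OsGRP3 KD and 21.9 and 23.95 CPM in NT Dongjin (-3.15 ± 0.47, adjusted p = 0.000406, edgeR), and Os01g0314800, a LEA3 family protein, had 83.7 and 94.5 CPM in OsGRP3 KD and 365 and 391 CPM in NT Dongjin (-2.08 ± 0.12). These falls held with both alternatives. In NT Nakdong RAB21 had 0.729 and 0.851 CPM and Os01g0314800 75.9 and 92.8 CPM.

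Heat shock proteins moved both ways, with 26 of 134 called up (19.4%) and 30 called down (22.4%) and a median of -0.27. Over all genes the shares were 23.8% up and 13.8% down. The small heat shock protein Os01g0135900 rose, with 294 and 307 CPM in OsGRP3 KD and 59.8 and 58.6 CPM in NT Dongjin (2.34 ± 0.11). Os09g0482100, similar to heat shock protein 82, a chaperone of the HSP90 class, had 211 and 211 CPM in OsGRP3 KD and 426 and 427 CPM in NT Dongjin (-1.02 ± 0.07). Small chaperones have short transcripts and HSP90 proteins long ones, and the 2 changes were 1.76 and -1.41 with the 3′-most exon and 1.56 and -0.65 with the length offset, where the fall lost its call.

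Defence genes were higher in number. Pathogenesis-related proteins include chitinases and glucanases that attack fungal walls. Of 106 such genes, 48 rose (45.3%) and 6 fell (5.66%), against 23.8% and 13.8% over all genes. Their median was 1.15 (0.90 with genes at 0 in a group at their bound), and 38 rose with the 3′-most exon and 40 with the length offset. A chitinase-like protein of glycosyl hydrolase family 18, Os05g0247100, had 1512 and 725 CPM in OsGRP3 KD and 264 and 287 CPM in NT Dongjin (2.02 ± 0.36, adjusted p = 0.00102, edgeR). The chitinase Os04g0493400 had 176 and 99.6 CPM in OsGRP3 KD and 2.33 and 2.40 CPM in NT Dongjin (5.86 ± 0.39). Os01g0382400, similar to the PR1-class protein PRB1-2, had 142 and 83.7 CPM in OsGRP3 KD and 3.09 and 2.43 CPM in NT Dongjin (5.37 ± 0.37). In all of these OsGRP3 KD replicate 1 was well above replicate 2, and the summed list was 4071 and 2754 CPM in OsGRP3 KD and 1650 and 1765 CPM in NT Dongjin. Without OsGRP3 KD replicate 2, 49 genes rose and 1 fell. Of the genes that fell, Os08g0408500 and Os05g0572000 are ERF transcription factors whose annotation carries the words pathogenesis-related. Against NT Nakdong the median of the list was 0.08, with 8 called up and 9 down.

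Transcription factors of defence and stress moved in both directions. The shares of AP2/ERF and DREB factors called (30% up and 16% down) were near those over all genes. Of 73 WRKY factors, 20 rose (27.4%, near the share over all genes) and 5 fell, with a median of 0.69. WRKY45 (Os05g0322900), a factor of the salicylic acid pathway in rice, had 27.6 and 37.6 CPM in OsGRP3 KD and 2.03 and 1.48 CPM in NT Dongjin (4.23 ± 0.27, adjusted p = 2.4e-06, edgeR). WRKY30 (Os08g0499300) fell to 12.97 and 14.9 CPM in OsGRP3 KD, against 62.3 and 61.1 CPM in NT Dongjin (-2.15 ± 0.14). Of 50 AP2/ERF and DREB factors, 15 rose and 8 fell, and without OsGRP3 KD replicate 2 the fall was called in 3. OsNAC5 (Os11g0184900), a NAC factor induced by drought and abscisic acid, had 19.4 and 21.8 CPM in OsGRP3 KD and 83.7 and 89.2 CPM in NT Dongjin (-2.07 ± 0.10), and kept its call with both alternatives. Its level in NT Nakdong was 14.5 and 15.6 CPM.

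Intracellular immune receptors of the NB-ARC class were lower. They are large proteins that detect pathogen effectors. Of 162 tested, 68 were called down (42.0%) and 9 up (5.56%), against 13.8% and 23.8% over all genes. Their median was -0.995, and with the 3′-most exon the counts were 67 down and 8 up. Their transcripts are long (median 3173 bases), and with the length offset 26 were called down and 12 up, with a median of -0.29. Os06g0267900 had 35.1 and 27.9 CPM in OsGRP3 KD and 92.3 and 93.1 CPM in NT Dongjin (-1.56 ± 0.22), and lost its call in both alternatives. Os06g0693100 rose instead, with 22.8 and 23.4 CPM in OsGRP3 KD and 2.15 and 1.79 CPM in NT Dongjin (3.56 ± 0.14). Against NT Nakdong the median of the list was 0.05, with 8 called down and 4 up.

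Redox genes of the cell wall were mostly higher in OsGRP3 KD than in NT Dongjin. Class III peroxidases are secreted haem enzymes that make or use hydrogen peroxide and cross-link the wall. Of 89, 61 rose (68.5%) and 6 fell (6.74%), against 23.8% and 13.8% over all genes. Their median was 2.88 (2.09 with 24 genes at 0 in NT Dongjin set to their bound), and 54 and 57 rose with the alternatives. Os10g0109300 had 137 and 104 CPM in OsGRP3 KD and 3.91 and 4.19 CPM in NT Dongjin (4.89 ± 0.21, adjusted p = 3.69e-07, edgeR). Another member, Os07g0677200, fell to 34.6 and 14.6 CPM in OsGRP3 KD, against 133 and 140 CPM in NT Dongjin (-2.47 ± 0.50). Against NT Nakdong the median of the list was -0.15, with 3 called up and 7 down.

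Scavengers of reactive oxygen inside the cell moved in both directions. Of 46, 14 rose (30.4%) and 3 fell (6.52%), against 23.8% and 13.8% over all genes, with a median of 0.36. Catalase isozyme A (Os02g0115700) rose, with 1768 and 2066 CPM in OsGRP3 KD and 497 and 614 CPM in NT Dongjin (1.79 ± 0.21), while catalase isozyme 2 (Os03g0131200) fell to 1102 and 1247 CPM in OsGRP3 KD, against 2746 and 2828 CPM in NT Dongjin (-1.25 ± 0.13). With the 3′-most exon both calls were lost, catalase A at 2.43 ± 2.101 (adjusted p = 0.368, edgeR) and catalase 2 at -0.79, and both held with the length offset. Metallothioneins, small cysteine-rich proteins that bind metals, gave 7 called up of 13 (53.85%), and 0 called down by edgeR, by DESeq2 or at an unadjusted p. The metallothionein Os05g0111300 had 494 and 490 CPM in OsGRP3 KD and 41.3 and 40.8 CPM in NT Dongjin (3.58 ± 0.09, adjusted p = 7.92e-08, edgeR). With the 3′-most exon 6 metallothioneins were called up, and with the length offset 3.

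Lipid transfer proteins, small secreted proteins that carry lipids to the cuticle and wall, had 41 of 56 called up (73.2%, against 23.8% over all genes). By edgeR, by DESeq2 or at an unadjusted p, 0 were called down. The median was 3.43, or 2.06 with 17 members at 0 in NT Dongjin set to their bound, and 34 and 33 were called up with the alternatives. Against NT Nakdong the median of the list was 0.05, with 2 called up and 5 down. Os11g0116200 had 1095 and 969 CPM in OsGRP3 KD and 114 and 131 CPM in NT Dongjin (3.08 ± 0.14). Its close copy on the same chromosome, Os11g0116000, had 1315 and 1392 CPM in OsGRP3 KD and 465 and 489 CPM in NT Dongjin (1.504 ± 0.10), and lost its call in both alternatives (0.96 and 0.81), and reads may be split between the copies. Splicing factors, by contrast, gave 8 called up (13.1%) and 7 called down (11.5%) of 61, with a median of 0.13. Both shares were below those over all genes.

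**Figure D4:**
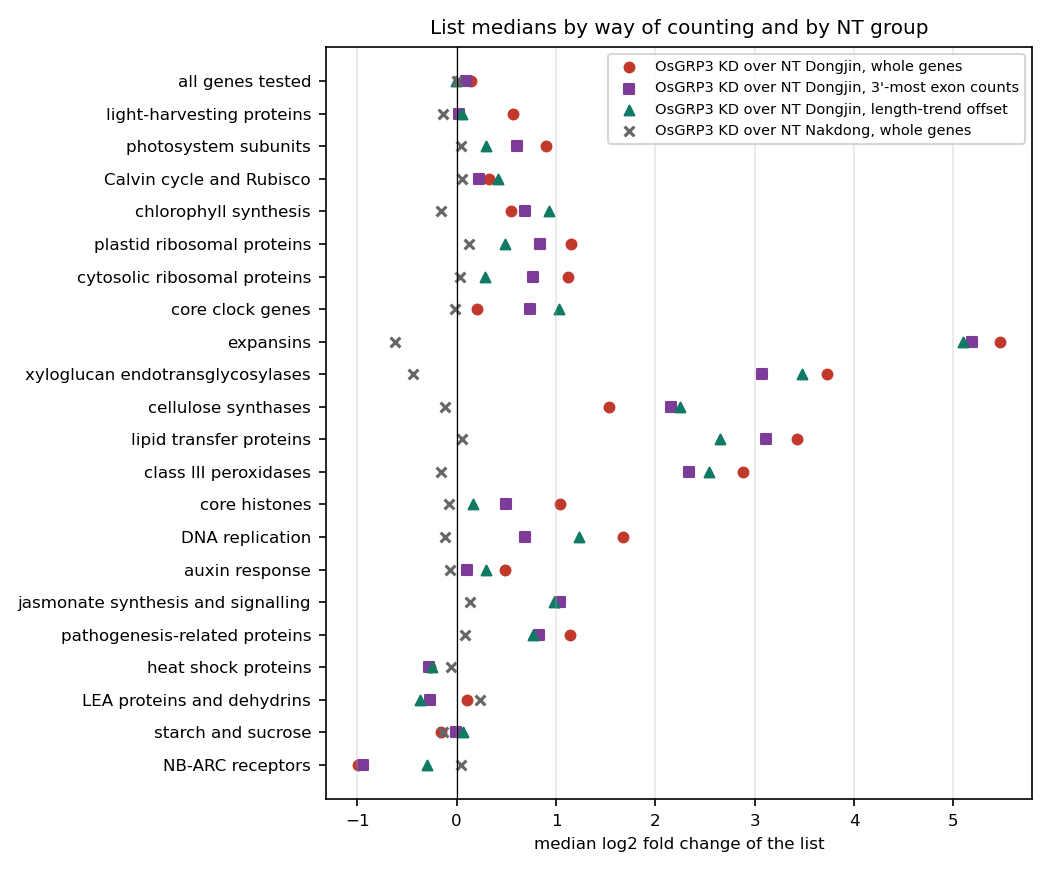
Median log2 fold change of each list in OsGRP3 KD over NT Dongjin from whole genes, from the 3′-most exon and with the length offset, and in OsGRP3 KD over NT Nakdong (crosses). Expansins and lipid transfer proteins stay above 2.6 in all 3 ways of counting against NT Dongjin, cytosolic ribosomal proteins come to 0.29 with the offset, and the medians against NT Nakdong lie near 0 for most lists.

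The genes with the widest rises were those with no reads in NT Dongjin. The 8 highest among genes called in the same direction from the 3′-most exon had 0 counts in both NT Dongjin libraries, and their ratios are lower bounds against a floor of 3 counts per library. Os11g0645400, a disease resistance response protein, had 796 and 696 CPM in OsGRP3 KD and was at least 6169-fold higher. Os01g0878900, similar to 4,5-DOPA dioxygenase, had 347 and 348 CPM in OsGRP3 KD (at least 3077-fold). Os03g0658800, a cytochrome P450, had 239 and 213 CPM in OsGRP3 KD (at least 1884-fold). The others were an acid phosphatase (Os05g0190500), the Tfm5-like protein Os02g0662100, the proline-rich protein Os04g0644400, the FAS1-domain protein Os02g0308800 and the DUF1210 protein Os10g0150800, with bounds from 533.3 to 1156. All 8 were also present in NT Nakdong, between 101.1 and 474.4 CPM.

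Most of the widest falls were in genes without a named function. Os04g0675101, with an ATPase-like domain, had 0 counts in OsGRP3 KD and 43.5 and 38.8 CPM in NT Dongjin, at least 349-fold lower. Os05g0163250 (at least 243-fold), Os02g0598800, with a telomere length regulation domain (at least 211-fold), and Os08g0116700 (at least 183-fold) also had 0 counts in OsGRP3 KD. Os09g0252700, similar to the ubiquitin ligase UPL1, had 0.192 and 0 CPM in OsGRP3 KD and 70.8 and 60.4 CPM in NT Dongjin (-9.26 ± 0.44). The genes of unknown function, Os06g0255200, Os10g0556700 and Os02g0553802, had log2 changes of -10.01, -9.58 and -8.86. In NT Nakdong 7 of the 8 were under 1 CPM, and Os02g0598800 had 9.67 and 0 CPM.

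The study listed 16 candidate genes, OsGRP3 among them, and chose them on these libraries for opposite changes in both lines, so that they are no independent evidence of a direction. The study lists OsGRP3, NP, FX1, LEA17, PR5 and the PR1 genes as lower in the knock-down, and the others as higher. Of the 15 that passed the filter, 8 rose and 1 fell. Among these calls, PR5 was higher and LRR lower in OsGRP3 KD, the reverse of the directions in the study. In OsGRP3 OE against NT Nakdong, 1 of the 15 was called up and 2 were called down. LOX (Os10g0361000), a lipoxygenase, had 8.39 and 8.35 CPM in OsGRP3 KD and 0 counts in NT Dongjin (at least 74-fold higher). The carotenoid oxygenase CCD1 (Os08g0371200) had 16.3 and 30.8 CPM in OsGRP3 KD and 0 counts in NT Dongjin (at least 144-fold higher). POX1 (Os01g0263300), a peroxidase, had 27.3 and 17.4 CPM in OsGRP3 KD and 0.301 and 0.289 CPM in NT Dongjin (6.23 ± 0.28, adjusted p = 4.27e-07, edgeR). MT1d (Os12g0571100), a metallothionein, had 1.99 and 1.97 CPM in OsGRP3 KD and 0.753 and 0.463 CPM in NT Dongjin (1.72 ± 0.36), and lost its call with the length offset (0.75). Os10g0580900, a conserved hypothetical protein, had 12.6 and 15.6 CPM in OsGRP3 KD and 6.02 and 6.57 CPM in NT Dongjin (1.16 ± 0.15), and lost its call with the length offset (0.87). LRR (Os01g0162300), a leucine-rich repeat protein, fell to 1.03 and 1.23 CPM in OsGRP3 KD, against 2.86 and 2.43 CPM in NT Dongjin (-1.23 ± 0.45). For LOX, CCD1, POX1 and the candidate Os01g0878900 (DOPA), given above, the rises from the deposited counts were far larger than those the study lists. The reason was not tested.

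The candidate PR genes rested on few reads. PR5 (Os12g0629700), a thaumatin-like protein, had 2.56 and 0.26 CPM in OsGRP3 KD and 0.0753 and 0 CPM in NT Dongjin (5.27 ± 1.32, adjusted p = 0.00738, edgeR). PR1 (Os07g0124900) had 0.833 and 0 CPM in OsGRP3 KD and 0.0376 and 0 CPM in NT Dongjin, which did not pass the test (adjusted p = 0.121, edgeR), and its paralogs Os07g0126301 and Os07g0125500 had nearly the same values, as reads cannot be assigned among such copies. LEA17 (Os03g0322900) had 0.641 and 0.334 CPM in OsGRP3 KD and 0.978 and 1.48 CPM in NT Dongjin (adjusted p = 0.302, edgeR). The exocyst gene FX1 (Os05g0369900) had 0.16 and 0.334 CPM in OsGRP3 KD and 0.226 and 0 CPM in NT Dongjin (adjusted p = 0.322, edgeR). NP (Os07g0559000), a non-protein coding transcript, had 0.256 and 0.148 CPM in OsGRP3 KD and 0 and 0.203 CPM in NT Dongjin and was not tested.

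A smaller set of genes stood apart in OsGRP3 KD from all other 6 libraries, including those with the same coverage shape. It was picked after the values were seen and is a description with no test. In 61 genes both OsGRP3 KD libraries were at least 2-fold above each of the others, and in 8 genes at least 2-fold below. The ribonuclease T2 gene Os09g0538000, of a family that degrades RNA in vacuoles and outside the cell, had 423 and 330 CPM in OsGRP3 KD, 46.8 and 46.7 CPM in NT Dongjin, 95.5 and 129 CPM in OsGRP3 OE and 99.0 and 103 CPM in NT Nakdong. The peptide transporter Os01g0871600 had 126 and 94.0 CPM in OsGRP3 KD and 1.24 and 2.37 CPM in NT Dongjin, and at most 0.133 CPM in the other 4 libraries. S-adenosylmethionine synthetase 1 (SAM1, Os01g0293000), which makes the methyl donor of the cell, had 35.6 and 29.7 CPM in OsGRP3 KD and 4.67 and 4.48 CPM in NT Dongjin, 1.14 and 1.05 CPM in OsGRP3 OE and 8.01 and 6.96 CPM in NT Nakdong. The DUF642 gene Os01g0611000 had 121 and 119 CPM in OsGRP3 KD and 0.489 and 0.636 CPM in NT Dongjin, but 55.9 and 46.9 CPM in OsGRP3 OE and 38.6 and 47.3 CPM in NT Nakdong, so that the gap to those was far smaller. Among those below, the HSP81-3 genes Os09g0482400 and Os09g0482600 had 71.8 and 67.1 CPM, and 70.7 and 65.2 CPM, in OsGRP3 KD, against 281 and 281 CPM, and 270 and 268 CPM, in NT Dongjin. The other 4 libraries had 173 to 184 CPM of them, and as neighbouring near copies they may share reads.

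**Figure D5:**
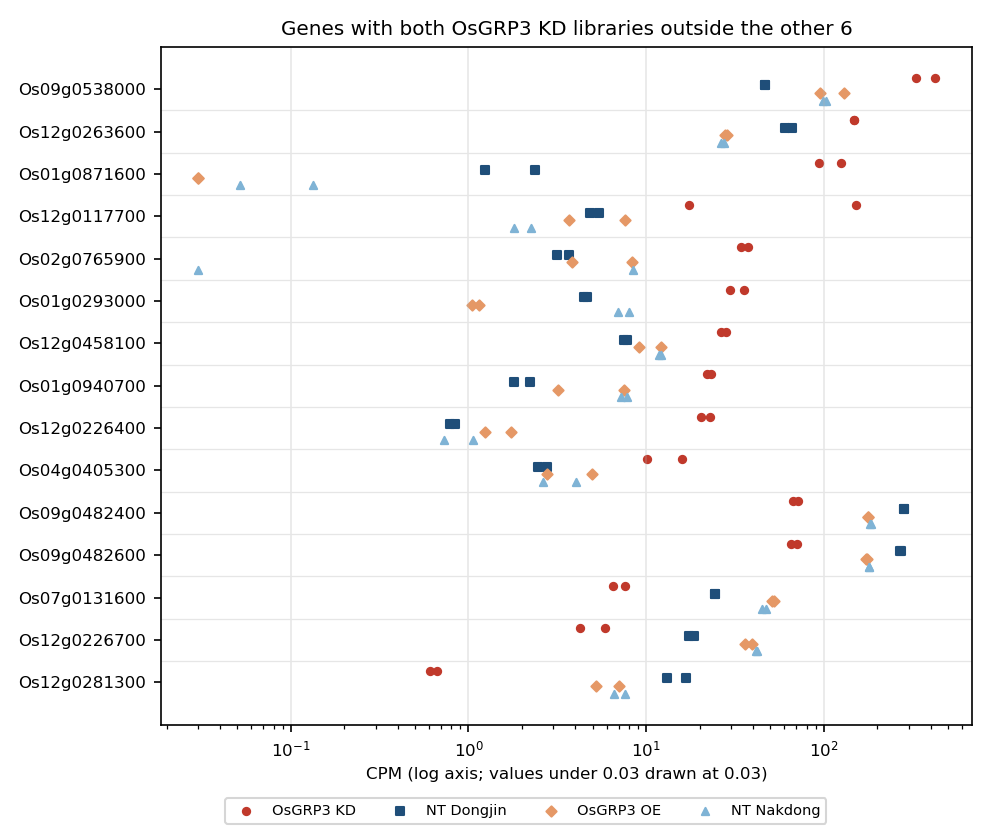
CPM on a log axis of genes in which both OsGRP3 KD libraries lay at least 2-fold above or below all 6 other libraries, 1 row per gene and 1 point per library, with OsGRP3 KD above the other groups. In Os09g0538000 the OsGRP3 KD points are at 423 and 330 CPM and the NT Dongjin points at 46.8 and 46.7 CPM.

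The spread between the knock-down libraries was wider than between the NT Dongjin libraries. Among genes with a mean of at least 10 CPM, 121 of 11625 (1.04%) differed by more than 2-fold between the OsGRP3 KD libraries, against 8 of 11017 (0.0726%) between the NT Dongjin libraries. Total counts were between 25836946 and 38940899 over all 8 libraries.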

How the data were processed

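Leaf mRNA was sequenced in 8 libraries, which were grouped by GEO's labels. The deposited estimated counts per gene equal StringTie coverage times transcript length over a read length of 101 bases, summed over transcripts and rounded up by the authors, since at least 99.99% of genes in each library were rebuilt within 1 count. They are whole numbers and were used in place of the plain read counts the tests had been designed for. The deposited FPKM values served the alternatives, and the TPM values were not used. Per the file headers, StringTie 1.3.4d took HISAT alignments on IRGSP-1.0 with a stranded setting, and exon coverage was deposited with the transcripts. The submitters' processing notes name HISAT2, Bowtie2 and StringTie, and the study's methods name TopHat, Trimmomatic and single-end reads. Columns that matched no sample numbered 0.

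TMM scaling, filterByExpr and the quasi-likelihood test of edgeR 4.0.16 (R 4.3.3) were applied to all 8 libraries with a mean per group, and genes were called at 2-fold with an adjusted p under 0.05. Counts of the 3′-most exon came from its coverage. The length offset was a lowess trend (span 0.3) on transcript length. Each SE was the absolute log2 fold change divided by the square root of the F statistic of the test. It thus draws on the spread shared by all groups. Alternatives were DESeq2 1.42.0, median-of-ratios factors, no filter, at least 10 counts in each of the 4 libraries, those 4 libraries alone, a replicate block, an unadjusted p, leaving out each library (the lone library of a group is then assumed to vary like the other groups), and limma 3.58.1 with a pseudocount of 1 (all genes, or those averaging at least 0.5 FPKM) or 0.1. A further one tested each gene by itself after quantile normalization of log2 FPKM, with calls at an unadjusted p. The fits were tested on simulated data. Python 3.11.15, pandas 2.3.3, numpy 2.4.6 and matplotlib 3.10.9 were used. Total counts were 25836946 to 38940899, and bounds use a floor of 3 counts per library, which covers counting error only.

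The comparison, the 47 lists, drawn by keywords from the deposited descriptions, and the tests were chosen with earlier results of these data known. Named genes were OsGRP3 and the study's candidates, the core clock genes, the 8 largest rises and 8 largest falls with a mean log2 CPM of at least 3, groups that did not overlap and the same call from the 3′-most exon, up to 3 called genes per list and direction with the highest CPM, and tissue markers.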

Additional observations from a re-analysis of the deposited data

How the results depend on the processing

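The main fit called 5806 genes up. When at least 10 counts were required in each of the 4 libraries, which tests fewer genes, 3781 were called up. When each gene was tested by itself on quantile-normalized FPKM, 2875 were, at an unadjusted p under 0.05. Against NT Nakdong, an alternative chosen after seeing the data, 332 genes were called up and 741 down, in place of 3363 down. OsGRP3 passed the call with the length offset (-1.03) and against NT Nakdong (-1.85), but not with the 3′-most exon (-0.24). NT Dongjin was itself far below NT Nakdong in OsGRP3, at 399.8 and 403 CPM against 1249 and 1171 CPM. The cause of the shifts between settings was not tested. With 1 library left out, 5255 to 5513 genes were called up and 3066 to 3435 down, and OsGRP3 was at -0.31 to -0.225. Same-numbered OsGRP3 KD and NT Dongjin libraries did not deviate together (r = -0.0154 across genes, which are not independent replicates), so they share only a number. The replicate block gave 5580 genes up, 3266 down and -0.262 for OsGRP3 (adjusted p = 0.111, edgeR).

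Of the 224 named genes that were called, 54 lost the call and 4 turned sign with the 3′-most exon, where 2 had no value, and 64 lost it and 1 turned sign with the length offset. Those that turned sign were Os09g0536000 (0.002), Os11g0572100 (0.206), Os03g0270200 (0.425) and Os11g0592500 (0.074) with the 3′-most exon, and Os04g0645100 (0.287) with the length offset. The other sign changes were in genes that had not been called. OsPRR73 (Os03g0284100) was at 0.075 with the 3′-most exon, 0.867 with the length offset, 0.345 tested by itself, 0.67 with limma at a pseudocount of 0.1, and 0.669 at a pseudocount of 1 with or without the filter. Tested by themselves, OsPRR37 (Os07g0695100) was at -0.105, OsGI (Os01g0182600) at -0.047 and FX1 (Os05g0369900) at -0.106. Lsi1 (Os02g0745100) was at 0.005 with at least 10 counts, and at -0.117 to 0.009 with 1 library left out. The PR1 genes changed sign without OsGRP3 KD replicate 1, and leaving out 1 library gave -2.325 to 6.752 for Os07g0124900 and -2.325 to 6.805 for Os07g0126301 and Os07g0125500.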

Other observations

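Genes of carbon and nitrogen metabolism were called in both directions. Of 83 genes of starch and sucrose, 20 rose (24.1%) and 22 fell (26.5%) in OsGRP3 KD, with a median of -0.16. Over all genes tested 23.8% rose and 13.8% fell. Granule-bound starch synthase Ib (Os07g0412100), which makes amylose in leaves, had 189 and 224 CPM in OsGRP3 KD and 1223 and 1221 CPM in NT Dongjin (-2.57 ± 0.10). Os04g0624600, similar to the starch synthase DULL1, had 69.9 and 74.0 CPM in OsGRP3 KD and 368 and 371 CPM in NT Dongjin (-2.36 ± 0.09). Sucrose synthase 2 (Os03g0401300), which splits sucrose in growing tissue, rose, with 394 and 204 CPM in OsGRP3 KD and 31.5 and 29.9 CPM in NT Dongjin (3.28 ± 0.28). All of these 3 calls held with both alternatives, where the DULL1-like gene came to -1.01 with the 3′-most exon and -1.28 with the length offset.

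Nitrogen genes moved both ways, with 7 of 49 called up (14.3%) and 9 down (18.4%), against 23.8% and 13.8% over all genes. Ferredoxin-dependent glutamate synthase (Os07g0658400), which recycles ammonium from photorespiration, had 1054 and 1050 CPM in OsGRP3 KD and 4258 and 4254 CPM in NT Dongjin (-2.02 ± 0.09), but its call was lost with the 3′-most exon (-0.63), and it was at -1.15 with the length offset. The ammonium transporter AMT1;1 (Os04g0509600) had 45.6 and 43.6 CPM in OsGRP3 KD and 249 and 261 CPM in NT Dongjin (-2.52 ± 0.08). Nitrite reductase (Os01g0357100) rose, with 746 and 624 CPM in OsGRP3 KD and 326 and 336 CPM in NT Dongjin (1.05 ± 0.25), and its call was lost with the 3′-most exon (0.86). Of 39 phosphate genes, 7 rose (17.95%) and 5 fell (12.8%), shares near or below those over all genes. The purple acid phosphatase Os01g0800500 had 20.1 and 23.9 CPM in OsGRP3 KD and 147 and 145 CPM in NT Dongjin (-2.74 ± 0.10).

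Of 10 aquaporins, water channels of the cell membranes, 1 rose (10%) and 3 fell (30%). Os02g0666200 had 1041 and 944 CPM in OsGRP3 KD and 2684 and 2613 CPM in NT Dongjin (-1.42 ± 0.10), while Os09g0541000 had 632 and 730 CPM in OsGRP3 KD and 125 and 133 CPM in NT Dongjin (2.40 ± 0.14). Cytochrome P450 genes gave 66 up (34.4%) and 28 down (14.6%) of 192, and glutathione S-transferases 14 up (31.8%) and 3 down (6.82%) of 44. Receptor-like kinases gave 13 up (16.9%) and 16 down (20.8%) of 77. Transposon-related genes gave 12 up (16.7%) and 23 down (31.9%) of 72, with a median of -0.43. Genes annotated as non-protein coding gave 208 up (28.5%) and 91 down (12.5%) of 730. Over all genes tested the shares were 23.8% up and 13.8% down.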
